A study of Homo sapiens with 12 samples.

Results

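The data described here are the response of U266 cells to IT848, in 6 of the 12 libraries of an RNA sequencing series on 2 human multiple myeloma lines. The members were chosen by cell line and treatment alone, and all genes were followed. U266 is an established IgE-secreting myeloma line with high cyclin D1 that makes its own IL6. One group of 3 libraries came from U266 cells given DMSO, the solvent, and the other group of 3 from U266 cells given IT848 at 6 µM, each for 6 h in RPMI medium with serum. The labels call IT848 an inhibitor of NF-kB and list no genetic change in either group. MM.1S, an IgA line with high MAF, was treated in the same way in the other 6 libraries and is used below only where responses are compared. The series asks what the compound does to transcription in myeloma cells. All values rest on 1 line, 1 dose and 1 time. Whether each library had a culture of its own is not in the labels, and the p-values measure spread between these libraries, which may be technical.

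NF-kB is a family of paired transcription factors (REL, RELA, RELB, NFKB1, NFKB2) held in the cytoplasm by inhibitor proteins such as IkBa, the product of NFKBIA. It is active in many myelomas and drives survival genes such as BIRC3 and its own inhibitors NFKBIA and TNFAIP3. Cells under chemical stress use other programmes. HSF1 raises chaperones when proteins misfold, NRF2 raises antioxidant enzymes when its sensor KEAP1 is modified, and ATF4 raises amino acid and redox genes when the initiation factor eIF2a is phosphorylated. AP-1 and EGR factors are made within minutes to hours of many signals. Plasma cells, which secrete large amounts of antibody, depend in turn on IRF4, PRDM1 and XBP1.

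The 6 libraries held 54477545 to 72039748 transcript counts, or 24879968 to 32913386 with 1 transcript per gene, and 19368 to 20966 genes had a count. Levels are given as CPM, counts scaled by library size and edgeR's TMM factors. Since the deposited counts repeat a read for each overlapping isoform, levels are compared between libraries and not between genes. The first principal component held 61.8% of the variance and separated the treatments. IT848 replicate 1 stood apart. It had 20966 genes with a count, against 19368 to 19735 in the other 5 libraries, and in it 8 genes abundant in MM.1S but almost absent from U266 with DMSO summed to 0.866% of their MM.1S level. They summed to 0.07497% and 0.0773% in IT848 replicates 2 and 3. CCND1, which marks U266, was at 515, 509 and 511 CPM with DMSO, against a mean of 4.85 in MM.1S with DMSO. Summed markers of T and NK, myeloid, epithelial and erythroid cells overlapped between the groups and reached 15.1 CPM at most.

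IT848 changed many genes a little and few genes much. Of 15609 tested genes, 2073 were called (13.3%), 956 up (6.12%) and 1117 down (7.16%), by edgeR's quasi-likelihood test at a Benjamini-Hochberg adjusted p below 0.05. The median size of a called change was 0.28 on the log2 scale. Most large changes were rises: 81 genes rose and 9 fell at least 2-fold, and 14 rose at least 4-fold. For 30.4% of tested genes every treated library lay above, or every one below, the controls. Without IT848 replicate 1, 1496 of the 2073 calls remained, 695 up and 801 down, and 63 of the 81 and 6 of the 9. The fit without it called 64 rises and 19 falls of at least 2-fold. The calls numbered 1360 without DMSO replicate 3. By DESeq2 the 2-fold counts were 47 up and 1 down.

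**Figure D1:**
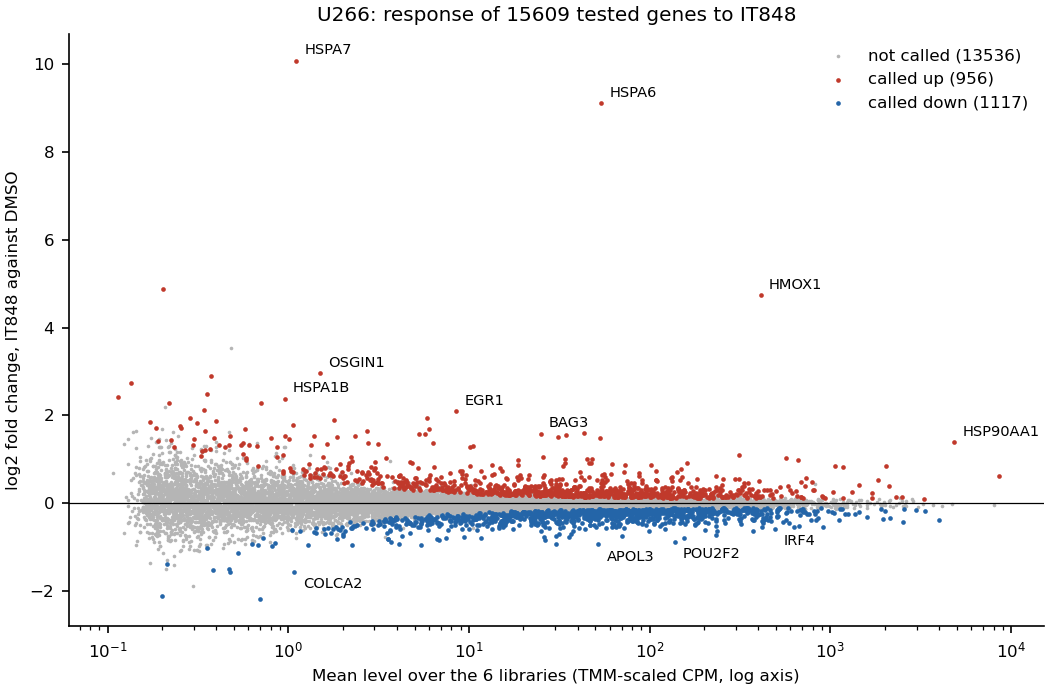
Log2 fold change of IT848 against DMSO (vertical axis) by mean level over the 6 U266 libraries in CPM (horizontal log axis), 1 point per tested gene, red for the 956 called up and blue for the 1117 called down. Rises reach far higher than falls; the fitted value of HSPA7 depends on the prior count, as its DMSO libraries are at 0.

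The size of the changes depended on the level of the gene. Genes were put in 4 equal bins of mean level. Since summed counts repeat reads over isoforms, these bins mix expression with the number of transcripts of a gene. In the lowest bin, up to 2.03 CPM, lay 53 of the 81 rises and all 9 of the falls of at least 2-fold, and the median SE there was 0.30. In the highest bin, above 54.9 CPM, the median SE was 0.042, and 9.35% of genes were called up and 14.7% down, with medians of 0.22 and −0.21. Falls were mostly small changes of well measured genes. Of 13519 protein-coding genes 890 rose and 1063 fell, and of 1211 long noncoding RNA genes 44 rose and 38 fell.

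Heat shock genes held the largest rise. HSPA6, a strictly heat-inducible HSP70 gene, stood at 0.128, 0.199 and 0.242 CPM with DMSO and 131, 90.99 and 100.1 with IT848, replicates 1 to 3 in each case. Every treated library was far above every control, a rise of 552-fold (log2 fold change 9.11 ± 0.25, adjusted p 1.9e-07). HSPA7, a near-identical pseudogene of HSPA6 whose reads cannot be told apart with certainty, had no count with DMSO and 2.79, 1.64 and 2.23 CPM with IT848. Against a floor of 3 counts per library (0.0550 CPM) it was at least 40.3-fold higher. HSPA1B, an inducible HSP70 gene, went from 0.403, 0.332 and 0.194 to 1.99, 1.100 and 1.72 CPM (2.38 ± 0.30). Its near-identical copy HSPA1A had no count with DMSO and 0.0849, 0.0349 and 0.01401 CPM with IT848, too low to be tested, and the pair may share or lose reads.

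Promoters of 3 of the heat shock genes are shown because they hold the site that HSF1 is known to bind, a heat shock element, matched as 3 units of GAANN and TTCNN in turn, in capitals. The stretches come from the RefSeq promoters of build GRCh38.p14, 5′ to 3′ on the strand of the gene, and end before its start. They lie at chr1:161524436-161524508 (plus strand), chr11:75562147-75562219 (plus strand) and chr11:90223057-90223139 (minus strand).
HSPA6: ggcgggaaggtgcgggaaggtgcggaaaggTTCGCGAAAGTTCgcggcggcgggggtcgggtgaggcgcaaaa
SERPINH1: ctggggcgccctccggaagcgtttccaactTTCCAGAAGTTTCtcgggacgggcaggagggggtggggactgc
CHORDC1: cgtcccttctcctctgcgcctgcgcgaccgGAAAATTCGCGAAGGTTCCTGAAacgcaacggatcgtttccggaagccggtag
In CHORDC1 the capitals cover 3 overlapping matches. The match begins 74, 76 and 60 bases before the start. Promoters were given for 12019 of the 15609 tested genes, and 42 of them (0.349%) held such an element on either strand. It was in 8 of the 768 promoters of genes called up (1.04%) and in 0 of 880 of genes called down. The 8, listed after their values were seen, were HSPA6, SERPINH1, CHORDC1, DNAJA1, ABHD3, HSPA8, DNAJB6 and GAS5. The window runs from 250 bases before to 50 after the start.

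Other chaperone genes rose by less. In the list of HSP70 and HSP110 genes 6 of 11 tested members rose and 1 fell (over all tested genes 6.12% rose and 7.16% fell), with a median log2 fold change of 0.40, against 0.01 over all tested genes. HSPH1, an HSP110 nucleotide exchange factor, went from 363, 383 and 364 to 776, 744 and 763 CPM (1.04 ± 0.03). Of 16 HSP40 co-chaperone genes, which hand clients to HSP70, 5 rose and 0 fell (median 0.11). DNAJB1, the heat-inducible one, was at 198, 199 and 197 CPM with DMSO and 462, 384 and 429 with IT848 (1.102 ± 0.06). DNAJA1 and DNAJB2 rose by 0.55 each and DNAJB6 by 0.38.

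Among 18 genes of HSP90 and its co-chaperones, 10 rose and 1 fell (median 0.31). HSP90AA1, the inducible HSP90 with several processed copies in the genome, went from 2604, 2843 and 2625 to 7364, 6784 and 6928 CPM (1.38 ± 0.04). Its constitutive partner HSP90AB1 rose by 0.61 ± 0.03, and the co-chaperone genes CHORDC1 and AHSA1, an activator of the HSP90 ATPase, by 0.70 ± 0.05 and 0.60 ± 0.04. The co-chaperone BAG3, which routes clients to autophagy, was at 12.2, 12.7 and 12.5 CPM and then 40.8, 32.2 and 39.02 (1.58 ± 0.08). HSPB1, a small heat shock protein, was at 30.1, 26.03 and 27.7 and then 85.5, 69.04 and 80.9 (1.49 ± 0.08). No control library reached any treated one for these genes. In the list of small heat shock and BAG genes, though, these were the 2 calls among 9 tested.

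Chaperones of other compartments divided. In mitochondria, HSPD1 and HSPE1, which form the HSP60 chamber and its lid, rose by 0.82 ± 0.03 and 0.87 ± 0.05, and 4 of 12 mitochondrial chaperone and protease genes rose with 0 falls. Of 14 subunit and prefoldin genes around the cytosolic chaperonin CCT, 8 rose and 0 fell, by 0.29 at most (CCT4; list median 0.17). In the endoplasmic reticulum (ER) 8 of 29 genes fell and 5 rose (median −0.09), a larger share of falls than of rises. HSPA5, the main ER chaperone BiP, went from 823, 834 and 827 down to 679, 702 and 709.8 CPM (−0.25 ± 0.03). XBP1, the transcription factor of the unfolded protein response, went from 675, 609.7 and 646 to 477, 488 and 506 (−0.39 ± 0.04). The rises in that list included EDEM1, which helps discard misfolded glycoproteins (0.36 ± 0.05), and DNAJB9, a BiP co-chaperone (0.30 ± 0.05). HSF1 itself was at 21.9, 18.97 and 19.8 CPM with DMSO and 19.3, 16.99 and 20.4 with IT848, overlapping levels that were not called (adjusted p 0.48).

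**Figure D2:**
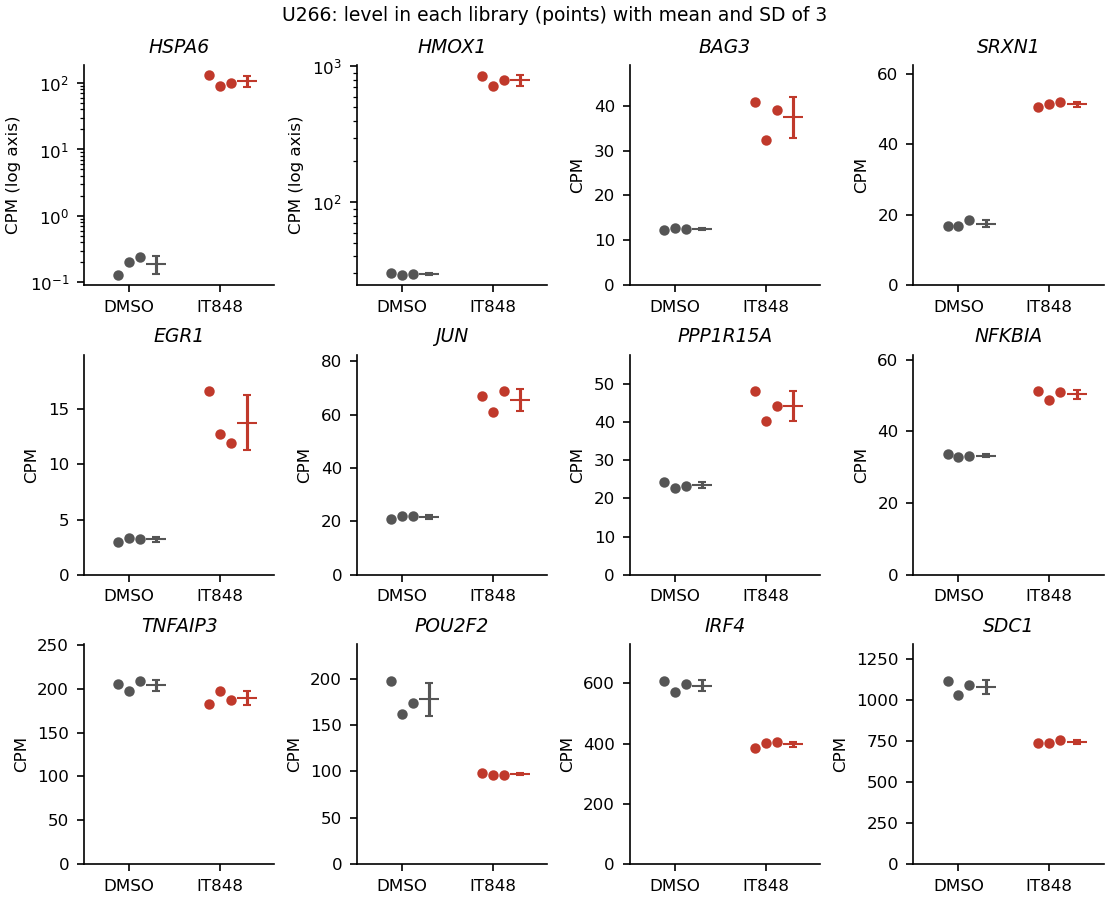
Level in CPM of 12 genes in each U266 library (points: 3 with DMSO in grey, 3 with IT848 in red), with mean and SD beside them; HSPA6 and HMOX1 are on log axes and the others start at 0. The groups are apart in every panel except TNFAIP3, whose points overlap.

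Some collagen-processing genes of the ER rose beside the chaperones. SERPINH1, the collagen chaperone HSP47, was at 17.1, 15.7 and 15.9 CPM with DMSO and 52.5, 42.7 and 42.97 with IT848, 2.84-fold higher (1.504 ± 0.08). P4HA2, a collagen prolyl hydroxylase, went from 16.7, 13.3 and 20.1 to 36.04, 37.00 and 31.01 (1.05 ± 0.14). In this list of 11 tested genes 3 rose and 2 fell, and neither fall was called without IT848 replicate 1. Stromal markers moved with them. Of 6 such genes 3 were called up (1 also without IT848 replicate 1), none was at 0, and their sum was 28.4 to 33.2 CPM with DMSO and 36.0 to 44.1 with IT848. Their part in the result was not tested.

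Outside the heat shock genes the largest rise by the criteria given further on was of HMOX1, whose product heme oxygenase 1 breaks heme down to iron, carbon monoxide and biliverdin. It was at 30.03, 29.1 and 29.8 CPM with DMSO and 856, 717 and 801 with IT848, or 26.7-fold higher (4.74 ± 0.06, adjusted p 6.6e-13). The reads of MM.1S in IT848 replicate 1 could make up 0.433% of this rise. Of 13 heme and iron genes 5 rose and 0 fell. FTH1 and FTL, the ferritin chains that store iron and have many processed copies, rose by 0.99 ± 0.04 and 0.52 ± 0.04. ABCB6, a porphyrin transporter, went from 12.6, 12.1 and 12.7 to 25.04, 24.2 and 24.8 CPM (0.98 ± 0.05).

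The thioredoxin and glutathione systems followed. SRXN1, which encodes sulfiredoxin and repairs overoxidized peroxiredoxins, was at 16.9, 16.9 and 18.6 CPM and then 50.6, 51.4 and 52.1, 2.94-fold higher (1.55 ± 0.05). TXNRD1, thioredoxin reductase, went from 729, 771 and 759.7 to 1350.5, 1378 and 1343 (0.85 ± 0.03). Across the thioredoxin system 8 of 18 genes rose and 0 fell (median 0.15). GCLM, the modifier subunit of the enzyme that begins glutathione synthesis, went from 28.3, 31.2 and 29.7 to 58.1, 60.8 and 60.9 CPM (1.01 ± 0.05). In the list of glutathione genes 8 of 25 rose and 1 fell, 6 and 0 of them also without IT848 replicate 1. GSTM3, a glutathione transferase, was at 0.623, 0.532 and 0.517 CPM and 1.56, 1.12 and 0.812, highest in replicate 1 (1.06 ± 0.27), and its call was lost without that replicate (adjusted p 0.082).

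Enzymes that handle NADPH and quinones gave 4 rises and 0 falls among 18. The quinone reductase NQO1 was at 41.7, 44.9 and 43.8 CPM with DMSO and 81.9, 77.3 and 82.6 with IT848 (0.89 ± 0.05), and PIR, ME1 and NQO2 rose by 0.86, 0.66 and 0.65. Of 14 NRF2 pathway genes 9 rose and 1 fell. OSGIN1, an oxidative stress growth inhibitor, was at 0.348, 0.482 and 0.194 CPM and then 2.72, 2.55 and 2.73 (2.96 ± 0.23). SQSTM1, the autophagy receptor p62 that binds KEAP1, rose by 0.84 ± 0.03, and MAFF and MAFG, DNA-binding partners of NRF2, by 0.59 and 0.53.

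The antioxidant response element that NRF2 and small MAF proteins bind (TGACNNNGC, both strands) is shown in capitals for 3 of these genes. They lie at chr12:104215650-104215718 (plus), chr1:93909431-93909494 (minus) and chr6:83431150-83431218 (minus), again from the RefSeq promoters.
TXNRD1: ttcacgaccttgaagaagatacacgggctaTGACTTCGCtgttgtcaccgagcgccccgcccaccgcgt
GCLM: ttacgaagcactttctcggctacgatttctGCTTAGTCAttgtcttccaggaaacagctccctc
ME1: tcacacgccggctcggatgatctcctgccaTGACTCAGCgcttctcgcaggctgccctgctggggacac
Such a match stood in 15.1% of the 12019 promoters, in 19.5% of those of genes called up and in 13.2% of those of genes called down. Among the 125 genes called up at least 1.5-fold, also without IT848 replicate 1, it was 23.2%. In GCLM the match reads on the opposite strand. A motif this loose is common, and the promoters of SRXN1 and NQO1 held none in the window.

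Genes of the integrated stress response rose as a group. Of 20 regulators 15 rose and 1 fell (median 0.45), all of them also called without IT848 replicate 1. PPP1R15A, which directs a phosphatase to eIF2a, went from 24.3, 22.8 and 23.4 to 48.1, 40.4 and 44.4 CPM (0.91 ± 0.06). The transcription factor gene ATF3 went from 52.1, 53.2 and 49.96 to 96.4, 89.6 and 98.8 (0.88 ± 0.05). TRIB3, a pseudokinase, and DDIT3, the death-linked factor CHOP, rose by 0.77 ± 0.05 and 0.59 ± 0.04. GDF15, a stress cytokine at a low level, was at 1.43, 1.196 and 1.001 CPM and then 3.75, 3.11 and 3.52 (1.52 ± 0.15). DDIT4 and SESN2, which restrain mTOR, rose by 0.71 ± 0.05 and 0.38 ± 0.05. ATF4, whose product is controlled mostly through translation, changed little at the RNA level, from 623, 621 and 613 to 684, 682 and 716 (0.17 ± 0.03).

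Amino acid supply genes downstream of ATF4 shared this direction. Transporters rose for 9 of 12 with 0 falls (median 0.30): SLC6A9, a glycine carrier, by 0.92 ± 0.05, the cystine importer SLC7A11 by 0.66 ± 0.06 and the leucine carrier SLC7A5 by 0.55 ± 0.04. Enzymes of amino acid and one-carbon synthesis rose for 14 of 20 and fell for 3. CTH, which makes cysteine from cystathionine, went from 21.6, 23.1 and 22.6 to 45.3, 44.3 and 46.2 CPM (1.01 ± 0.05). PSAT1 of serine synthesis rose by 0.63 ± 0.04, CBS, the enzyme before CTH, by 0.53 ± 0.04 and asparagine synthetase ASNS by 0.40 ± 0.03. Of 19 tRNA synthetase genes 9 rose and 0 fell, by 0.32 (CARS) at most, and 6 of the 9 without IT848 replicate 1.

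The composite site of C/EBP and ATF proteins (TGATGNAA, both strands), through which ATF4 is known to act, is shown for ATF3, CHAC1 and ASNS. CHAC1, a glutathione-degrading enzyme, rose by 0.52 ± 0.05. The stretches lie at chr1:212565186-212565253 (plus), chr15:40953232-40953299 (plus) and chr7:97872439-97872506 (minus).
ATF3: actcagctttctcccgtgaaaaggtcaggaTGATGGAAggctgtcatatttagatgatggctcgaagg
CHAC1: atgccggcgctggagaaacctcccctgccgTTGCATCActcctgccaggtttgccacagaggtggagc
ASNS: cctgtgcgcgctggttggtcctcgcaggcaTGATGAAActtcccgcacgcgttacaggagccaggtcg
In CHAC1 the match reads on the opposite strand. The site was in 1.87% of the promoters of all tested genes, in 4.69% of those called up (36 of 768) and in 1.70% of those called down. Among the 125 rises of at least 1.5-fold it was in 9, or 7.2%.

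**Figure D3:**
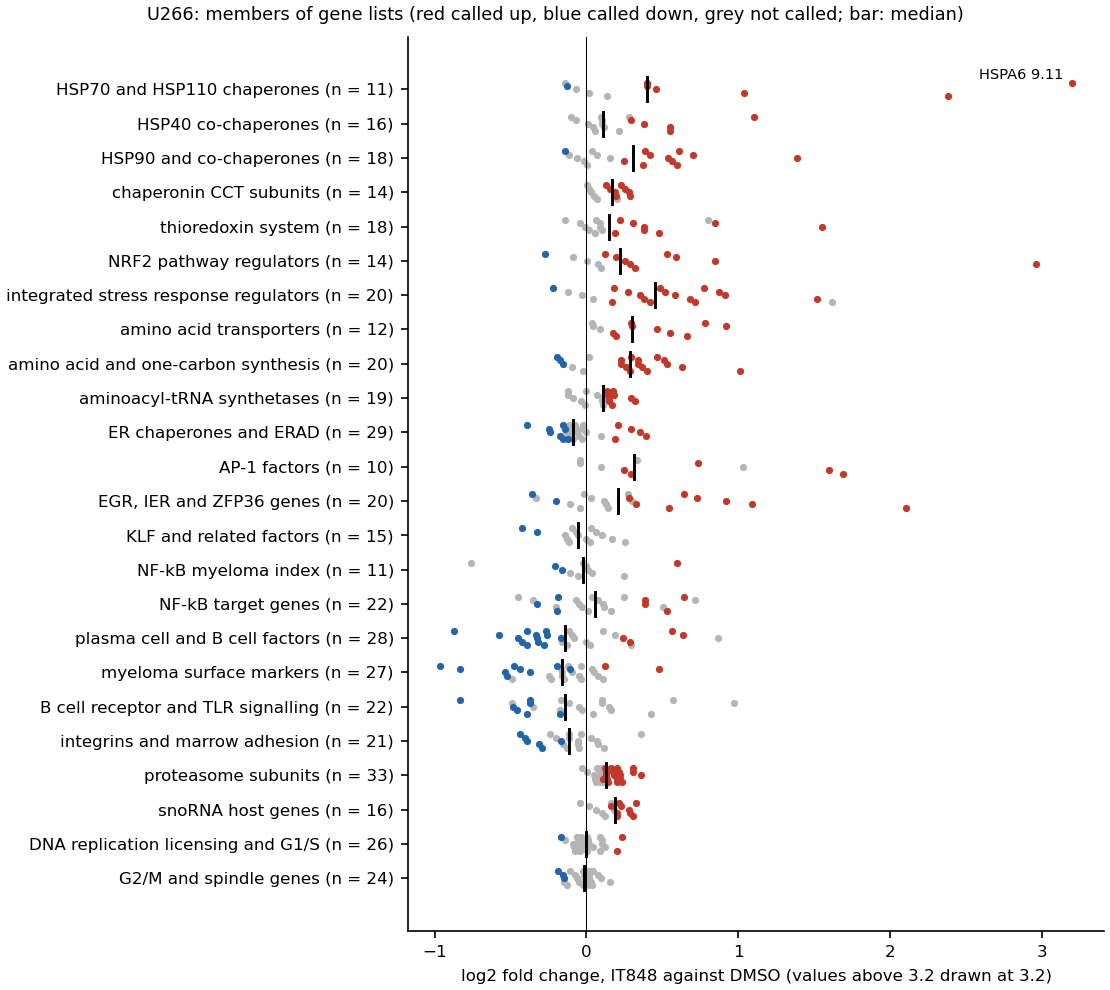
Log2 fold change of each tested member (points; red called up, blue called down, grey not called) of 24 gene lists, with the list median as a black bar and the number tested in brackets; HSPA6 is drawn at the right edge. Members of the stress lists lie mostly right of 0, those of plasma cell, surface, B cell receptor and adhesion lists mostly left, and cell cycle lists close to 0.

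Immediate early genes rose in part. EGR1, a zinc finger factor induced by MAPK signals, was at 2.99, 3.36 and 3.25 CPM with DMSO and 16.6, 12.7 and 11.96 with IT848, 4.29-fold higher (2.102 ± 0.12). FOS went from 2.73, 3.01 and 2.73 to 10.1, 8.26 and 9.01 (1.69 ± 0.10) and its AP-1 partner JUN from 20.9, 21.9 and 22.1 to 66.99, 60.9 and 68.7 (1.599 ± 0.06). Of 10 AP-1 genes 5 rose and 0 fell, FOSL2 by 0.74 ± 0.08 and JUND by 0.29 ± 0.05 among them. In the wider list of EGR, IER and ZFP36 genes 8 of 20 rose and 2 fell. The orphan receptor gene NR4A1 rose by 0.73 ± 0.07, and IER5L, at 1.15, 1.83 and 1.49 and then 3.23, 2.71 and 2.58 CPM, by 0.92 ± 0.17. Of 15 KLF and related genes 0 rose, and KLF2 and KLF13 fell (−0.42 ± 0.07 and −0.33 ± 0.04). Over all tested genes 6.12% rose and 7.16% fell, shares at which few of 15 genes would be called.

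Feedback on MAP kinases was read from 17 phosphatase and Sprouty-type genes, of which 4 rose and 1 fell. DUSP1, a nuclear MAPK phosphatase, was at 2.33, 2.82 and 2.75 CPM and then 8.32, 7.49 and 7.94 (1.59 ± 0.10). DUSP2, a related phosphatase near the limit of detection, was at 0.202, 0.0166 and 0.0484 and then 0.679, 0.629 and 0.658 (2.91 ± 0.51). Its log2 fold change was 4.24 without DMSO replicate 1 and 2.41 without DMSO replicate 2, and it was not called by DESeq2. MYC, often grouped with early genes, was low in these cells, at 3.78, 3.46 and 3.698 CPM and then 6.404, 3.999 and 3.73. IT848 replicates 1 and 2 were above the controls and replicate 3 among them, and MYC was not called (adjusted p 0.24). Its log2 fold change was 0.37 ± 0.18, and 0.08 without IT848 replicate 1, the library with reads of MM.1S.

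The EGR1 promoter is shown for its pair of CArG boxes in capitals, the site of serum response factor, at chr5:138465344-138465435 (plus strand).
EGR1: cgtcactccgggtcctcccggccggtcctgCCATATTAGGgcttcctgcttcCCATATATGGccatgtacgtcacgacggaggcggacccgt
A CArG box stood in 1.06% of all 12019 promoters and in 1.95% of those of genes called up and 1.82% of those called down. An AP-1 site (TGANTCA) stood in 4.87%, 7.55% and 3.98%, and in 18.4% of the 125 rises of at least 1.5-fold. AP-1 sites and antioxidant response elements can share bases, and they did so in 57 promoters, 11 of them among the 125. Counting only AP-1 sites clear of such elements, the shares were 4.43%, 5.6% and 3.86%, and 11.2% among the 125. The cyclic AMP element TGACGTCA was in 3.07%, 3.65% and 1.82%.

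Genes of NF-kB, the named target of the compound, were called in both directions. In each of the 4 NF-kB lists the share of called genes was above the 13.3% of all tested genes. The lists are short and share members, so these are not 4 separate results. In the highest bin of level, which held BIRC3, NFKB2 and TNFAIP3, 9.35% of genes were called up and 14.7% down. Of 11 genes in an NF-kB index made for myeloma 1 rose and 2 fell (median −0.02). TNFAIP3, the NF-kB feedback inhibitor A20, was at 206, 197 and 209 CPM with DMSO and 183, 198 and 187 with IT848, with overlap between the groups, and was not called (adjusted p 0.099). BIRC3, an inhibitor of apoptosis, went from 348, 355 and 347 to 305, 324 and 310.2 (−0.16 ± 0.03), and CFLAR, which blocks caspase 8, fell by 0.21 ± 0.03 on the log2 scale. NFKB2, which encodes p100, was at 587, 527 and 587 and 566, 548 and 561 CPM and was not called. The 1 rise was of NFKBIA, at 33.6, 32.96 and 33.2 and then 51.2, 48.8 and 51.03 CPM with no overlap (0.60 ± 0.04, adjusted p 1.2e-06).

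Wider NF-kB lists were as mixed, to be read against 6.12% up and 7.16% down over all tested genes. Of 15 subunit and inhibitor genes 2 rose and 2 fell. The falls were of BCL3 (−0.43 ± 0.07), a nuclear IkB protein, and REL (−0.37 ± 0.06), the c-Rel subunit, and the second rise was of the kinase gene IKBKB (0.25 ± 0.04). Of 21 upstream regulators 2 rose and 2 fell, near the shares of all tested genes, and 2 and 1 of these calls were kept without IT848 replicate 1. Of 22 targets 4 rose and 3 fell, all of them also called without that replicate. The rising targets were SAT1 (0.53 ± 0.07), a polyamine enzyme, GADD45B (0.39 ± 0.07), the adaptor TRAF1 (0.38 ± 0.06) and the chemokine receptor CCR7 (0.64 ± 0.19), whose call held in 6 of 13 alternative settings. Among the falls was CCL3 (−0.19 ± 0.04), a myeloma chemokine with near-identical copies.

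NFKBIA is shown with the NF-kB site of its promoter in capitals, at chr14:35404791-35404860 (minus strand).
NFKBIA: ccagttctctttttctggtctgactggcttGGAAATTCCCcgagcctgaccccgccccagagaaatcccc
The NF-kB motif was in 6.29% of all promoters, 6.51% of those called up and 7.39% of those called down. The window reaches only 250 bases before the start, so sites farther away are not counted.

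**Figure D4:**
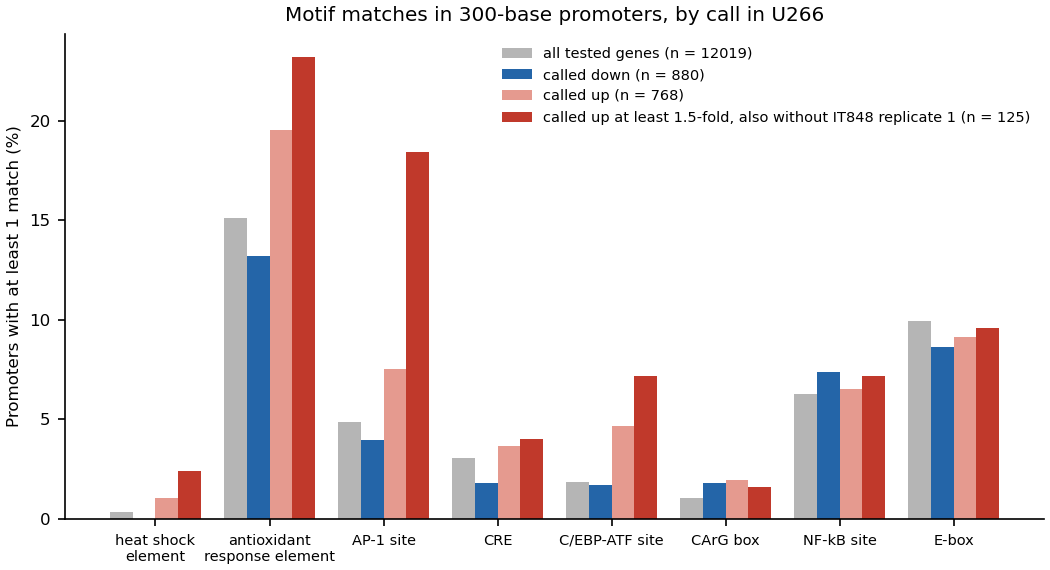
Percent of RefSeq promoters (250 bases before to 50 after the start) with at least 1 match of 8 motifs on either strand, for all tested genes, genes called down, genes called up and the 125 called up at least 1.5-fold also without IT848 replicate 1. The bars of AP-1, antioxidant and C/EBP-ATF sites grow toward the 125 rises, and those of the NF-kB site and E-box stay level.

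Many transcription factors of plasma and B cells fell. Of 28 such genes 13 fell and 4 rose (median −0.14), and all 17 calls were kept without IT848 replicate 1. Over all tested genes 7.16% fell and 6.12% rose, and in the highest bin of level 14.7% fell. IRF4, on which myeloma cells depend, went from 608, 571 and 598 to 387, 400.2 and 404 CPM (−0.58 ± 0.04). POU2F2, the octamer factor OCT2, went from 198, 163 and 174 to 98.4, 96.6 and 96.2 (−0.87 ± 0.06), the largest called fall of the list. PRDM1, which encodes BLIMP1 and fixes the plasma cell state, went from 126, 123 and 120.3 to 102, 102 and 104 (−0.26 ± 0.04). The rises were led by MEF2B (0.63 ± 0.08) and ID2 (0.57 ± 0.07), an inhibitor of helix-loop-helix factors. In bulk RNA fewer cells expressing a gene and less of its RNA per cell cannot be told apart.

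Surface and secretory genes of the line moved the same way. Of 27 myeloma surface markers 9 fell and 2 rose (over all tested genes 7.16% fell and 6.12% rose). Of these calls 8 falls and 1 rise were kept without IT848 replicate 1. SDC1, the plasma cell antigen CD138, went from 1117, 1032 and 1089.9 to 736, 741 and 756 CPM (−0.54 ± 0.04), and TNFRSF17, the receptor BCMA, from 135, 138 and 129 to 92.1, 92.98 and 94.8 (−0.52 ± 0.04). The 6 genes listed as U266 markers all fell, 5 of them also without IT848 replicate 1. Of these CCND1 and IL6 set the line apart from MM.1S, and SDC1, TNFRSF17, IRF4 and PRDM1 are plasma cell genes of both lines. CCND1, the rearranged cyclin D1 gene of U266, went from 515, 509 and 511 to 389, 398 and 401 (−0.37 ± 0.03). IL6, the plasma cell growth factor, went from 4.400, 4.302 and 4.42 to 3.24, 3.32 and 3.600, a fall (−0.37 ± 0.10) that was not called without IT848 replicate 1 (adjusted p 0.073). Of 19 genes for antibody secretion 6 fell and 0 rose, led by the disulfide isomerase TXNDC5, from 4504, 4485 and 4511 to 3297, 3529 and 3555 CPM (−0.38 ± 0.03).

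B cell receptor and adhesion genes gave falls and no called rise. Of 22 receptor and toll-like pathway genes 7 fell and 0 rose (over all tested genes 7.16% fell and 6.12% rose). CD180, a toll-like receptor homologue, went from 35.6, 32.6 and 32.6 to 17.3, 20.2 and 19.01 CPM (−0.83 ± 0.06), and the phosphatase INPP5D and the phospholipase PLCG2 fell (−0.46 ± 0.04 and −0.39 ± 0.04). Of 21 integrin and marrow adhesion genes 6 fell, 5 of them also without IT848 replicate 1. ITGA4, which binds marrow stroma, went from 169, 182 and 170.4 to 120.1, 134 and 132 (−0.43 ± 0.05), and VCL, the adhesion protein vinculin, and ICAM2 fell by 0.40 ± 0.06 and 0.39 ± 0.04. The chemokine receptor gene CCR2 went from 123, 117 and 121 to 71.8, 81.6 and 80.4 (−0.63 ± 0.05). Actin genes shared the fall: of 26 cytoskeletal genes 9 fell and 4 rose, with ACTG1 at −0.43 ± 0.04, ACTB at −0.38 ± 0.03 and the myosin light chain MYL9 at −0.88 ± 0.13.

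Genes of cell death moved both ways, to be read against 6.12% up and 7.16% down over all tested genes. Of 6 survival members of the BCL2 family 2 fell, MCL1, from 1104, 1066 and 1086 to 915, 975 and 939 CPM (−0.20 ± 0.03), and BCL2L1, which encodes BCL-XL (−0.19 ± 0.04). Of 13 death members 5 rose and 3 fell. PMAIP1, the MCL1 antagonist NOXA, rose by 0.36 ± 0.06 and BBC3, or PUMA, by 0.58 ± 0.15, while BMF fell by 0.31 ± 0.05. BBC3 was not called without IT848 replicate 1 (adjusted p 0.052). TNFRSF10B, a death receptor for TRAIL, went from 18.9, 23.3 and 22.3 to 29.7, 27.5 and 27.1 CPM (0.38 ± 0.07). Of 23 p53 targets 7 rose and 1 fell, 4 and 1 of them also without IT848 replicate 1. GADD45A rose by 0.91 ± 0.05. CDKN1A, the cell cycle inhibitor p21, rose by 0.17 ± 0.04 and was not called without IT848 replicate 1 (adjusted p 0.051).

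The replication and mitosis lists had shares of called genes slightly below the 13.3% of all tested genes. The ribosome biogenesis list had a lower share, and the list of G1 regulators a larger one. In the list of cyclin D, CDK4/6 and their inhibitors 4 of 17 genes rose, CDKN1A among them, and 5 fell, with CCND1. Of these calls 1 rise and 5 falls were kept without IT848 replicate 1. Of 26 G1/S and replication genes 2 rose and 1 fell (median −0.00), and of 24 G2/M genes 0 rose and 3 fell, 1 of them also without IT848 replicate 1. MKI67, the proliferation antigen, went from 699, 731 and 722 to 638, 647 and 649 CPM (−0.15 ± 0.03). Ribosome biogenesis had 1 rise and 1 fall in 26 genes, neither kept without IT848 replicate 1. MYCL, a MYC relative, fell (−0.36 ± 0.04). Over all tested genes 7.16% fell, and in the highest bin of level 14.7%, so 3 falls in 24 G2/M genes are no clear excess. Over the alternatives the G2/M falls ran from 0 to 5.

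Several groups of short and abundant transcripts rose by small steps. Of 33 proteasome genes 19 rose and 0 fell (median 0.13), the most by PSMD11, from 160.3, 155 and 159 to 207, 202 and 201 CPM (0.36 ± 0.03). Of 16 snoRNA host genes 9 rose and 0 fell (median 0.19), SNHG7 and SNHG12 by 0.32 ± 0.05 and 0.31 ± 0.06. Ribosomal protein genes rose for 15 of 78 with a median of 0.08. The median transcript lengths of these groups were 1580, 1026.5 and 791 bases, against 2842 for all tested genes, and levels relative to the U266 mean fell with length in IT848 replicates 1 and 3 (Spearman's rho across genes −0.223 and −0.202) and in no other library. With the length trend taken out, 15, 7 and 9 rose. Without IT848 replicate 1, 13, 7 and 5 of the calls remained, and over all alternatives the ribosomal count ran from 0 to 17. The part of transcript length in these rises was not tested beyond this.

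Protein turnover genes added larger changes. ZFAND2A, an arsenite-inducible partner of the proteasome, went from 6.12, 6.44 and 5.62 to 17.2, 12.9 and 14.8 CPM (1.305 ± 0.10), and 7 of 24 ubiquitin genes rose with 0 falls. Of 36 autophagy and lysosome genes 12 rose and 4 fell, all 16 also without IT848 replicate 1. GABARAPL1, which coats autophagosomes, rose by 0.60 ± 0.06 and the lysosomal protease CTSL by 0.55 ± 0.03. Sterol genes went down more often than up, 9 against 3 of 26, with SREBF1, their transcription factor, at −0.51 ± 0.08 and the exporter ABCA1 at −0.48 ± 0.06. Without IT848 replicate 1 the counts were 5 and 1. Interferon-stimulated genes were mixed, 6 up and 9 down of 41, beside 6.12% up and 7.16% down over all tested genes. Of these calls 4 rises and 6 falls were kept without IT848 replicate 1. Over the alternatives 2 to 8 rose and 4 to 10 fell. The largest fall was of APOL3, an apolipoprotein L gene, from 73.9, 62.1 and 67.95 to 38.3, 34.02 and 34.5 CPM (−0.93 ± 0.07).

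Signalling and nuclear lists gave calls in both directions, to be read against 6.12% up and 7.16% down over all tested genes. Of 9 glucocorticoid receptor genes and targets 4 rose and 0 fell, all 4 also without IT848 replicate 1, with DUSP1, GADD45A and NFKBIA, already described, among them. Of 26 Wnt, Notch and Hippo genes 2 rose and 4 fell, with HES1 and WISP1 at the ends of the range. Of 20 TGF-beta, BMP and ID genes 1 rose, ID2, and 3 fell. Of 31 PI3K, mTOR and RAS genes 3 rose and 5 fell, and 2 and 2 of these calls were kept without IT848 replicate 1. Of 28 glycolysis and hypoxia genes 4 rose and 3 fell, 3 and 1 of them kept. Chromatin writers and erasers gave 2 rises and 7 falls in 49 genes. That share of falls is above that of all tested genes but like the 14.7% of the highest bin of level. Of these calls 1 rise and 4 falls were kept without IT848 replicate 1. With the length trend taken out, 4 of the 49 rose and 5 fell. Splicing factors gave 2 and 2 in 28, near the shares of all tested genes. Zinc finger genes named ZNF rose for 32 of 487 and fell for 10, and 18 and 4 of these calls were kept. Their share of rises, 6.57%, is near the 6.12% of all tested genes, and their share of falls, 2.05%, is below the 7.16%.

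Beyond the lists, the 20 largest rises and the 20 largest falls by set criteria held genes of other kinds. Those criteria were a call also without IT848 replicate 1, no overlap and a mean of at least 1 CPM, which 668 rises and 791 falls met. HES1, a Notch target, was at 0.422, 0.465 and 0.533 CPM and then 1.92, 1.52 and 1.51 (1.79 ± 0.21). CACNA1G, a calcium channel, went from 2.42, 2.74 and 2.13 to 12.3, 8.64 and 6.93 (1.93 ± 0.21), highest in replicate 1. Its counts are summed over 33 transcripts and may repeat reads, so it may have met the 1 CPM criterion in that way. It was called with the most counted transcript alone, but not in the fit on all 12 libraries. The diacylglycerol kinase gene DGKG went from 2.200, 2.99 and 3.34 to 8.41, 8.49 and 8.698 (1.58 ± 0.12), of which MM.1S reads in replicate 1 could make up 6.25%, the highest share among the 20. Low genes among them were RRAD, a Ras-related GTPase (1.896 ± 0.28), TAC1, which encodes substance P (1.63 ± 0.19), the sialidase NEU4 (1.54 ± 0.21) and the adaptor GRB10 (1.505 ± 0.16).

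Falls of this ranking were smaller. COLCA2, at 1.23, 1.53 and 2.07 CPM and then 0.645, 0.664 and 0.3502, had the largest (−1.56 ± 0.27). Each of the other 19 was below 2-fold, from −0.94 for the Wnt effector TCF7L2 to −0.76 for the copine CPNE5. WISP1, a secreted matrix protein, went from 42.2, 38.3 and 38.6 to 19.3, 22.02 and 21.5 CPM (−0.92 ± 0.06), and SMPD3, a sphingomyelinase, from 8.63, 8.47 and 9.19 to 4.74, 5.13 and 4.79 (−0.84 ± 0.08). The membrane gene MYADM went from 209, 191 and 188 to 129, 100.5 and 112 (−0.78 ± 0.08). LINC00891 and LOC100132741 had identical counts in every library and stand for the same reads (−0.81 ± 0.12). PRR5-ARHGAP8, a readthrough symbol that shares reads with its parts, fell too (−0.80 ± 0.09).

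MM.1S cells were given the same dose for the same time. The lines share no library, so each response stands on its own controls. Of the 955 genes that rose in U266 and were tested in both lines, 538 also rose in MM.1S (56.3%) and 76 fell. Of the 1117 that fell, 629 fell in MM.1S (56.3%) and 101 rose. In MM.1S 19.5% of the genes tested in both rose and 20.4% fell, and the shared calls were 17.7% of its rises and 19.8% of its falls. The difference between the responses was called for 2924 of 16782 genes (17.4%). Among the U266 rises it was called for 359, of which 197 were larger in U266, and among the falls for 367, of which 242 were larger. Without the library of each line that held reads of the other, 1712 genes were called.

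Some heat shock and early genes responded more in U266. The response of HSPA6 was 9.11 ± 0.25 in U266 and 1.26 ± 0.15 in MM.1S, a difference of 7.84 ± 0.30 (adjusted p 6.3e-09). In MM.1S DNAJB1 was not called and JUN fell (−0.03 ± 0.06 and −0.25 ± 0.05), with differences of 1.13 ± 0.08 and 1.85 ± 0.07. EGR1, DUSP1 and BAG3 differed by 1.796 ± 0.30, 1.11 ± 0.19 and 1.16 ± 0.12, and ATF3 and DDIT4 by 0.98 ± 0.09 and 1.41 ± 0.10. HES1 went opposite ways, at −0.79 ± 0.11 in MM.1S. The difference for HSPH1 was −0.05 ± 0.06 and was not called.

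Several NRF2 targets responded less in U266. HMOX1 rose by 4.74 ± 0.06 in U266 and 6.08 ± 0.10 in MM.1S, a difference of −1.34 ± 0.12 (adjusted p 5.5e-06). The differences were −2.07 ± 0.10 for NQO1, −1.83 ± 0.06 for FTL, −1.46 ± 0.10 for SLC7A11, −1.14 ± 0.08 for GCLM and −0.97 ± 0.06 for SRXN1. HSP90AA1 and HSPB1, of the heat shock lists, also responded less in U266, with differences of −1.08 ± 0.12 and −1.73 ± 0.12. The difference for IRF4 was −0.01 ± 0.07 and was not called, and SDC1 fell less in U266 (0.50 ± 0.05). CCL3 fell in U266 and rose in MM.1S (1.699 ± 0.06).

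Among genes with a mean of at least 1 CPM in U266 that met the criteria above, the 10 called with the largest response relative to MM.1S were HSPA7, HSPA6, ST6GAL2, LINC01021, SCN4A, KIF1A, HES1, C5orf58, SLC12A8 and JUN. ST6GAL2, a sialyltransferase gene, and LINC01021 did not rise in U266: they fell (−0.54 ± 0.05 and −0.46 ± 0.08), and their MM.1S values were −6.76 ± 1.02 and −3.51 ± 0.87. Both are U266 genes near 0 in MM.1S, where DMSO replicate 2 held reads of U266. ST6GAL2 had no count in the treated MM.1S libraries and LINC01021 none in all but 1 of them, so these fitted values depend on the prior count. Without that library and IT848 replicate 1 of U266, the differences were 6.23 (adjusted p 0.0097) and 2.78 (adjusted p 0.066). The sodium channel gene SCN4A rose by 0.94 ± 0.10 in U266.

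**Figure D5:**
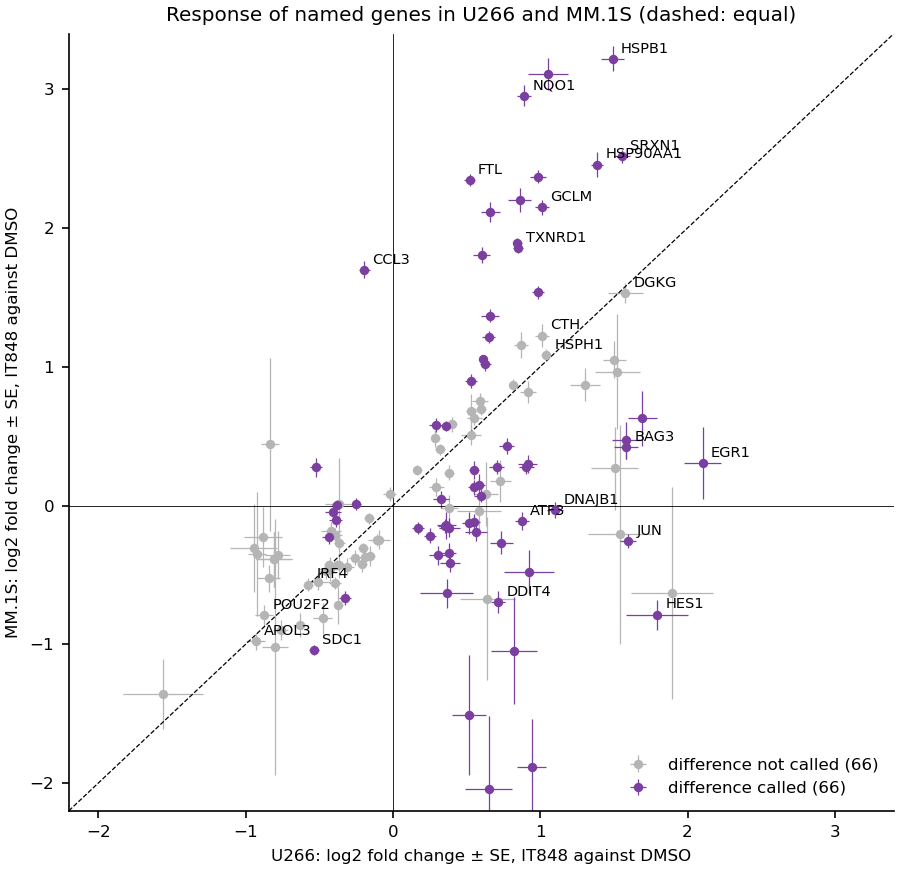
Log2 fold change ± SE of IT848 against DMSO in U266 (horizontal) and MM.1S (vertical) for the named genes with a mean of at least 1 CPM, purple where the difference was called; the dashed line marks equal responses, and genes beyond the axes or with an SE of 1 or more are left out. NRF2 genes such as NQO1 and FTL lie above the line, and JUN, EGR1 and DNAJB1 below it.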

How the data were processed

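RNA of U266 and MM.1S cells was sequenced in 12 libraries, 3 per line and treatment. The deposited tables give, per the file headers, a raw count, an FPKM value and a TPM value for each of 51780 RefSeq transcripts, made by the authors with 1 file per library. The deposited FPKM served, with the count, to work out transcript lengths, and the deposited TPM gave no value used here. Tools named in the submitters' processing notes, without role, were STAR 2.5.2b, Trimmomatic 0.36, bcl2fastq and, from Subread 1.5.2, featureCounts, with build hg19. Strand setting and handling of multiply mapped reads: not given in the sources used here. A read is counted for every transcript it overlaps, so sums over a gene repeat reads.

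Deposited counts were summed per symbol (25680). The 6 U266 libraries were fitted in edgeR 4.0.16 (R 4.3.3, limma 3.58.1) with TMM scaling, filterByExpr (minimum count 10) and the robust quasi-likelihood F-test, with Benjamini-Hochberg adjustment and a threshold of 0.05. SEs are the absolute log2 fold change over the square root of F. Responses of the lines were compared by an interaction term over 12 libraries. The scripts were tested on simulated data. Counting alone limits precision to at least 3 counts per library, the floor used. The alternatives were RLE scaling, DESeq2 1.42.0, no low-count filter, the most counted transcript, all 12 libraries, a replicate block, removal of the length trend and leaving out each library.

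Named genes were the 20 largest rises and 20 largest falls with a mean of at least 1 CPM, no overlap and a call also without IT848 replicate 1, up to 4 called members of each list, some genes chosen by name, and the 10 largest differences from MM.1S. Members, lists and names were chosen with earlier results of these data known. Promoters were matched for 12019 of 15609 genes by symbol or identifier. Motifs of 10 or more letters are given by name.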

Additional observations from a re-analysis of the deposited data

Results flagged for a closer look

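A difference in response between the lines was called for 75 of the 143 named genes tested in both, by the interaction term of edgeR's quasi-likelihood test on all 12 libraries. The response was higher in U266 for 44 and lower for 31. Each value is the log2 fold change in U266 minus that in MM.1S, so a value above 0 can also mean a smaller fall in U266. Every gene had its 3 treated and 3 control libraries in each line. The value of HSPA7, which had no count in U266 with DMSO, depends on the prior count.

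Among NRF2 and redox genes the difference was 0.64 for CHAC1, −0.36 for MAFG, −0.55 for FTH1, −0.56 for NQO2, −0.71 for ME1, −0.97 for SRXN1 and −1.01 for TXNRD1. Further values were −1.05 for SQSTM1, −1.14 for GCLM, −1.34 for HMOX1, −1.34 for PIR, −1.39 for ABCB6, −1.43 for OSGIN1 and −1.83 for FTL. The rest were −2.07 for NQO1 and −2.57 for GSTM3. For stress response and amino acid genes it was 0.98 for ATF3, 0.67 for SLC7A5, 0.61 for PPP1R15A, 0.44 for DDIT3, 0.34 for TRIB3, −0.40 for PSAT1 and −1.46 for SLC7A11. In heat shock genes the value was 7.84 for HSPA6, 1.91 for HSPA1B, 1.16 for BAG3, 1.13 for DNAJB1, 0.42 for CHORDC1, 0.42 for DNAJA1 and −0.45 for HSP90AB1. Further values were −1.08 for HSP90AA1 and −1.73 for HSPB1. The genes of no list gave 8.42 for HSPA7, 6.21 for ST6GAL2, 3.04 for LINC01021, 2.82 for SCN4A, 2.69 for KIF1A, 2.02 for C5orf58 and 1.87 for SLC12A8. Among NF-kB genes the difference was 0.80 for GADD45B, 0.52 for NFKBIA, 0.47 for IKBKB and −1.90 for CCL3. For cell death and growth genes it was 0.99 for MYC, 0.54 for TNFRSF10B, 0.50 for PMAIP1 and 0.33 for CDKN1A. The value of MYC was 0.71 without the library of each line that held reads of the other. In genes of other lists the value was 2.57 for HES1, 1.41 for DDIT4, 0.75 for ID2, 0.72 for SESN2, 0.66 for SNHG12, 0.63 for GADD45A and 0.29 for CTSL. Further values were 0.28 for SNHG7, −0.21 for ITGA4, −0.22 for PSMD11, −0.29 for PLCG2, −0.36 for VCL, −1.20 for GABARAPL1 and −2.06 for P4HA2. The early genes gave 2.92 for DUSP2, 1.85 for JUN, 1.80 for EGR1, 1.398 for IER5L, 1.11 for DUSP1, 1.06 for FOS and 1.002 for FOSL2. Further values were 0.34 for KLF13 and −0.29 for JUND. Among ER genes the difference was 0.50 for EDEM1 and −0.26 for HSPA5. For plasma cell genes it was 0.50 for SDC1, −0.39 for TXNDC5 and −0.80 for TNFRSF17.

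Without the library of each line that held reads of the other, a setting chosen after the data were seen, 9 of the 75 were no longer called, namely CTSL, DDIT3, ITGA4, LINC01021, PLCG2, PMAIP1, SNHG7, TRIB3 and VCL.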

How the results depend on the processing

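None of the 2073 calls changed sign in any of the 13 alternatives, and the share of calls that were rises ran from 42.0% to 46.7%. The number of calls was 2089 with RLE scaling, 2222 with DESeq2, 2114 with no low-count filter, 2500 with the most counted transcript, 1512 with all 12 libraries and 2176 with the length trend taken out. DESeq2 called 47 rises and 1 fall of at least 2-fold, and without the low-count filter 15 such falls were called. Leaving out each library in turn gave 1360 to 2188 calls, 620 to 972 up and 740 to 1216 down, and 64 to 88 rises and 7 to 19 falls of at least 2-fold. The lowest total was without DMSO replicate 3 and the 19 falls were without IT848 replicate 1; the cause was not tested. In all 13 alternatives 1035 calls were kept, 450 up and 585 down.

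With a replicate block, 2586 genes were called in U266 and 3147 in the comparison of lines. Deviations of libraries with the same number correlated at 0.244, 0.179 and −0.063 (11740 genes). Those of libraries with different numbers correlated at −0.249 to 0.112. Whether the numbers pair the libraries cannot be told from these values and is not in the labels. The comparison of lines gave 2924 calls, 2208 to 3870 over the libraries left out, 3549 with DESeq2, 2894 with RLE scaling, 2585 without the low-count filter and 3163 with the most counted transcript. Without U266 IT848 replicate 1 and MM.1S DMSO replicate 2 together, chosen after the data were seen, it gave 1712; the cause was not tested.

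Of 139 named genes called in U266, 126 kept their call in every alternative. The 13 that did not were BBC3, BCL2L1, C5orf58, CACNA1G, CCL3, CCR7, CDKN1A, DUSP2, GSTM3, IL6, KIF1A, MKI67 and TCF7L2. TNFAIP3 was called down with DESeq2 and without DMSO replicate 2 or IT848 replicate 2. In the lowest of 4 bins of level the median SE of 0.30 limits which changes could be called.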
